A study of Homo sapiens with 12 samples.

Results

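The genes described here are 10 forkhead transcription factor genes other than FOXM1, namely FOXO1, FOXO3, FOXO4, FOXC1, FOXC2, FOXK1, FOXK2, FOXP1, FOXJ2 and FOXN3. They were found by symbol in the study's gene tables and followed through 12 libraries. All 10 were among the 14857 genes tested, of 14862 genes in the normalized count table. The cells were hTERT-RPE1, a telomerase-immortalized line from human retinal pigment epithelium, labelled wild type in genotype and epithelial. Poly(A) RNA was sequenced from 4 groups of 3 libraries, which received the FOXM1 siRNA (siFOXM1), the CENPF and FOXM1 siRNAs together (siCENPF+siFOXM1), the CENPF siRNA (siCENPF) or a negative control siRNA (siNeg). Each group was treated overnight with 20 nM siRNA, and cells were collected after 48 hours. The siRNA sequences, and whether the double treatment held 20 nM of each siRNA, is not stated in the labels. Libraries held 13671250 to 35411230 reads in genes. A single cell line was used, and nothing in the labels says that the 3 libraries of a group came from separate cultures, so p-values measure the spread between these libraries, which may be technical. RNA was taken from whole cultures, in which fewer cells of a kind and less RNA per cell cannot be told apart. Of 16 listed marker symbols of pigment epithelium, 2 of them older names of genes also listed, 14 were in the FPKM table. BEST1 and MITF were the 2 that averaged 1 FPKM or more. RPE65 was listed at 0 FPKM in all libraries and RLBP1 averaged 0 FPKM in siFOXM1 and 0.00264 FPKM in siNeg. BEST1 averaged 35.4 FPKM in siFOXM1 and 38.7 FPKM in siNeg, but 1267 of its annotated exonic bases are shared with FTH1 on the other strand. The epithelial keratin KRT18 averaged 32.8 FPKM in siFOXM1 and 33.6 FPKM in siNeg.

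Forkhead factors bind DNA through a winged-helix domain that recognizes a short A-rich core. FOXM1 drives genes of the G2 and M phases of the cell cycle. The FOXO factors act downstream of insulin and growth factor signalling: phosphorylation by AKT moves them out of the nucleus, so that their activity is set largely at the protein level, and in several cell types they oppose FOXM1 at shared DNA sites. FOXC1 and FOXC2 pattern mesenchyme and the anterior eye, FOXK1 and FOXK2 repress transcription together with chromatin cofactors, and FOXP1, FOXJ2 and FOXN3 have roles in differentiation and cell cycle control. The comparisons ask whether transcripts of these genes changed when FOXM1 was depleted.

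Promoter sequences are shown for FOXO4 and FOXK1, the members whose values stood nearest to the threshold in siFOXM1 against siNeg in the fit with the replicate number as a block, and for the window of FOXP1 that held the forkhead core word. The word searched was GTAAACA, and TGTTTAC as its complement on the other strand, in windows from 250 bases before to 50 bases after each RefSeq start (GRCh38.p14). RefSeq entries matched 9 of the 10 members with 17 windows. FOXC2 had no entry. The word was in 3.42% of all 35116 windows and in 2 of the 17 windows of members, one of FOXO4 and one of the 6 of FOXP1. Capitals mark the word, and each sequence runs 5′ to 3′ on the strand of the gene. The FOXO4 window is chrX:71095601-71095900 on the plus strand, where the word begins at base 24 counted from the RefSeq start as base 1. That start lies upstream of the gene start in the deposited tables. The FOXP1 window is chr3:71245028-71245327 on the minus strand, with the word on the opposite strand and its first base at -193 from the start. The FOXK1 window is chr7:4682045-4682344 on the plus strand and does not hold these letters.
FOXO4: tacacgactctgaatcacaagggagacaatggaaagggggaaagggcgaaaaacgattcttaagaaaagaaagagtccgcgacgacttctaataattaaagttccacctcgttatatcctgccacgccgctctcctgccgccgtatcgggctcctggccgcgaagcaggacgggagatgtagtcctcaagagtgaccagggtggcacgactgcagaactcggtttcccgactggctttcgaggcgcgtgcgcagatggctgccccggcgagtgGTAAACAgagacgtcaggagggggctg
FOXP1: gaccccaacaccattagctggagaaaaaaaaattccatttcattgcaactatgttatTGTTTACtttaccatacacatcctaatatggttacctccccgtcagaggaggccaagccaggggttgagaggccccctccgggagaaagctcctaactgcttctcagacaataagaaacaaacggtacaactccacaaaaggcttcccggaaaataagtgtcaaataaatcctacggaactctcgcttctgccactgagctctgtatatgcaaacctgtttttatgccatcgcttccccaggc
FOXK1: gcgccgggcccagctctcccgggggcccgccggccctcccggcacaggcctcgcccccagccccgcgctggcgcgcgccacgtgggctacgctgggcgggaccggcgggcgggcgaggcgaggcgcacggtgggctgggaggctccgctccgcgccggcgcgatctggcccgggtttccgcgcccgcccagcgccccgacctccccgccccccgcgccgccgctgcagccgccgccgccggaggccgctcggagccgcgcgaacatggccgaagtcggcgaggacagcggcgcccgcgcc
Of other words tied to cell cycle promoters, TTTGAA on either strand was in 15.2% of all windows and in the FOXN3 window. CCAAT on either strand was in 34.6% of all windows and in windows of FOXC1, FOXK2, FOXO1 and FOXP1. A match is a description of these letters only.

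FOXC2 was the most abundant member per length, and FOXO1 and FOXO4 the least. In siNeg, FOXC2 averaged 30.9 ± 4.8 FPKM (SD, n = 3), with libraries between 25.8 and 35.3 FPKM. FPKM, as the authors deposited it, scales a gene's reads by its summed exonic length and by the library's reads in genes. FOXO3 followed at 3.82 ± 0.57 FPKM, FOXC1 at 3.64 ± 0.719 FPKM, FOXJ2 at 3.55 ± 0.356 FPKM and FOXK2 at 3.49 ± 0.228 FPKM, and the ranges of each neighbouring pair among these 4 overlapped. FOXK1 averaged 2.96 ± 0.121 FPKM and lay below FOXK2 in every siNeg library. FOXP1 averaged 1.03 ± 0.158 FPKM, FOXN3 0.863 ± 0.296 FPKM, FOXO4 0.508 ± 0.347 FPKM and FOXO1 0.343 ± 0.134 FPKM, and neighbouring ranges in this stretch overlapped too. The order depended on the length used. FOXP1 has 76 annotated transcripts in GENCODE 29 and a summed exonic length of 51525 bases, against 8994 bases in its longest coding transcript. Scaled to the longest coding transcript instead, FOXC2 stayed first at 26.4, FOXK2 came next with libraries between 14.8 and 16.7, then FOXO3 at 8.96 and FOXP1 at 5.92, while FOXO4 at 0.864 and FOXO1 at 0.353 stayed last.

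**Figure D1:**
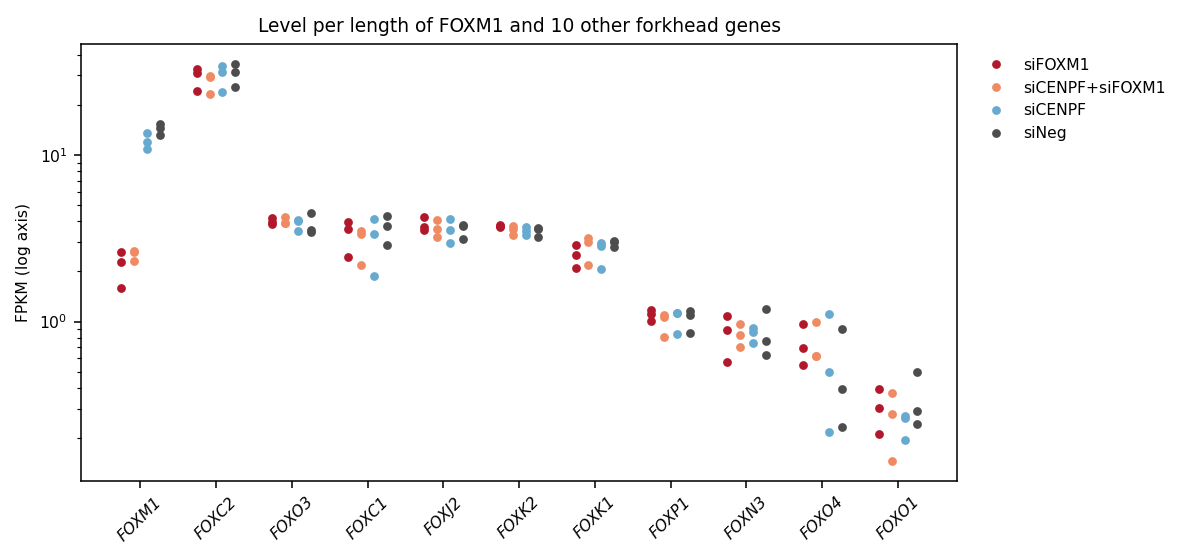
FPKM on a log axis for FOXM1 and the 10 other forkhead genes, ordered by their mean in siNeg; each point is 1 library and colours mark the siRNA group. FOXM1 lies between 1.59 and 2.64 FPKM in libraries with the FOXM1 siRNA and between 10.9 and 15.3 FPKM in libraries without it, while siFOXM1 and siNeg share part of their range for every other gene shown except FOXK2.

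The targeted transcripts were checked first. FOXM1 had 732, 491 and 816 normalized counts in siFOXM1 and 4186, 4438 and 4763 in siNeg. With both siRNAs it had 729, 816 and 822 normalized counts, against 3893, 3394 and 4258 in siCENPF. FOXM1 fell by 2.74 on the log2 scale in siFOXM1 against siNeg (95% interval -3.08 to -2.41, limma adjusted p = 3.30e-06) and by 2.28 with both siRNAs against siCENPF (adjusted p = 3.16e-05). CENPF averaged 913 normalized counts in siCENPF and 8442 in siNeg. The FOXM1 gene shares 781 exonic bases with ITFG2 on the other strand, and ITFG2 averaged 1.41 FPKM in siFOXM1 and 4.48 FPKM in siNeg. The labels do not say whether counting used the strand, and the part of shared reads in this difference was not tested.

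Transcripts of none of the 10 genes passed the test when FOXM1 was depleted, and the size of change that the data leave possible differed widely between genes. The test was limma on log2(normalized count + 1) over all 14857 genes, with Benjamini-Hochberg adjustment and a threshold of 0.05. Called members numbered 0 of 10 in siFOXM1 against siNeg, where 0.66% of all genes were called. No member had an unadjusted p under 0.05 in this fit, where 1155 of all genes had one. On the reads recovered from the deposited CPM values, edgeR and DESeq2 also called 0 of 10, with no unadjusted p under 0.05. Over all genes edgeR called 98 of 14554 and DESeq2 244 of 14525, with 1167 and 1122 unadjusted p under 0.05. Libraries with the same replicate number deviated together in all 18 pairs, and once the number entered the limma model as a block, 8.72% of all genes were called but still 0 of 10 members. Unadjusted p-values were then under 0.05 for 2 of 10 members, FOXO4 and FOXK1, and for 3213 of the 14857 genes tested.

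**Figure D2:**
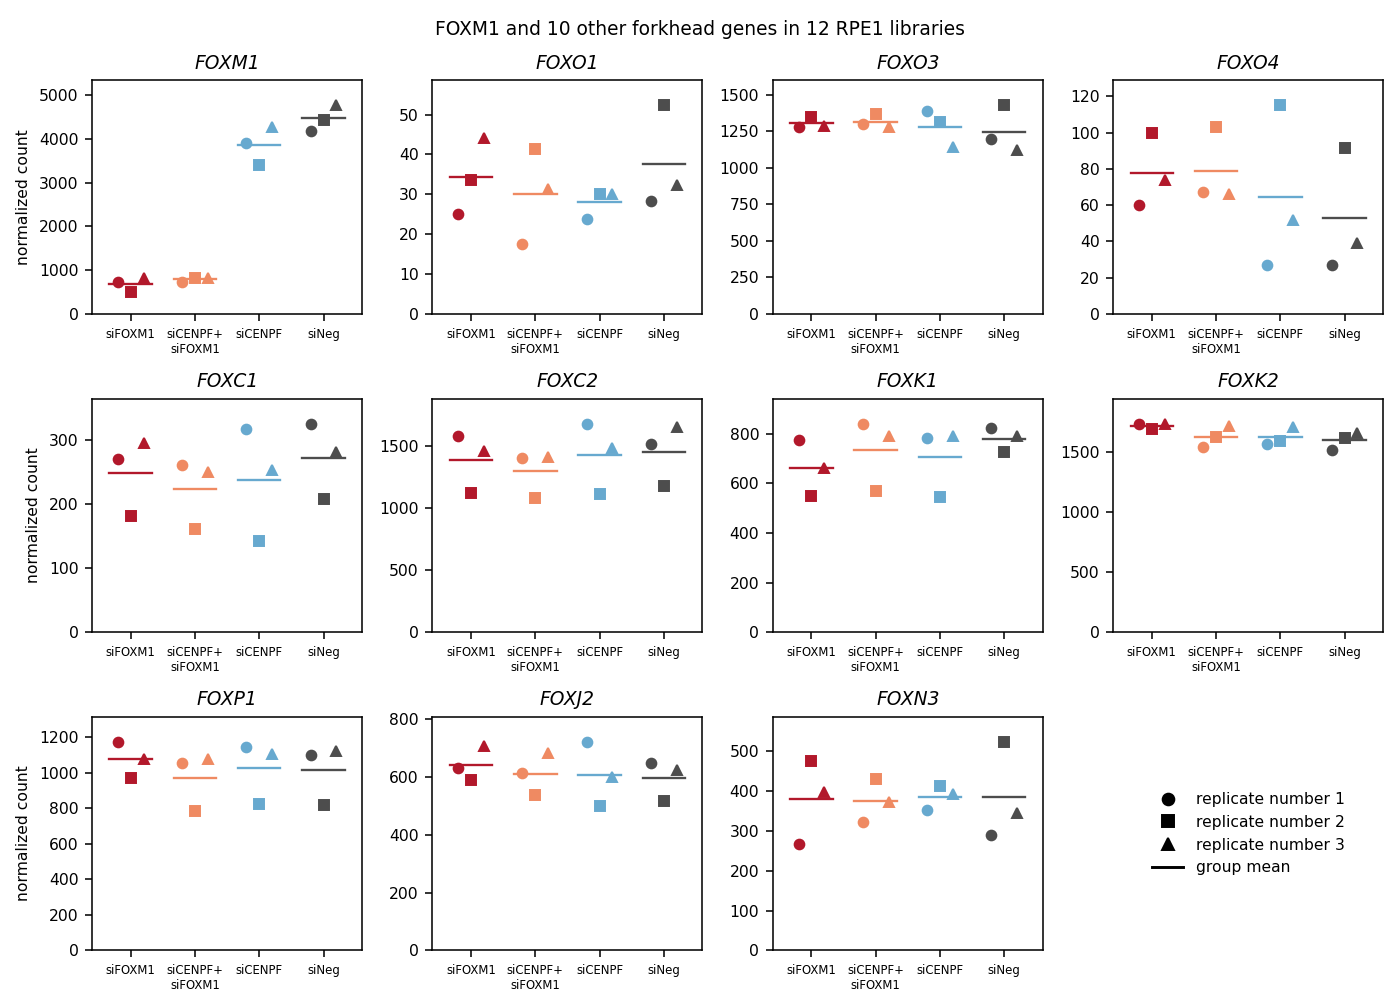
Normalized counts of FOXM1 and the 10 other forkhead genes in each library, with the siRNA groups along the horizontal axis, a marker shape for each replicate number and a bar at the group mean; each vertical axis starts at 0. FOXM1 is low in siFOXM1 and with both siRNAs, whereas the squares (replicate number 2) are the lowest points of all 4 groups for FOXC1, FOXC2, FOXP1 and FOXJ2 and the highest for FOXO4 and FOXN3. The share of all genes with either order was not counted.

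Among the FOXO genes, FOXO4 had the largest difference of any member and FOXO3 the narrowest interval of the 3. FOXO4 (chrX:71096197-71103535, plus strand), which like the other FOXO factors acts on cell cycle arrest and stress genes, had 60.2, 99.9 and 73.8 normalized counts in siFOXM1, 67.5, 103 and 66.0 with both siRNAs, 27.0, 115 and 52.0 in siCENPF and 26.9, 91.7 and 39.2 in siNeg. Its counts in siFOXM1 were higher than in siNeg within each of the 3 replicate numbers, by 1.13, 0.12 and 0.89 on the log2 scale, but the ranges of both groups overlapped. The log2 difference was 0.72 with an interval of -0.40 to 1.84 (limma adjusted p = 0.846), and with the block 0.23 to 1.21 (adjusted p = 0.0608). FOXO4 rested on 17 to 88 reads in a library. Without the block, its log2 difference ran from 0.3393 to 1.2065 when 1 library or number was left out. It was 0.3369 on the FPKM table, where the pseudocount of 0.5 is close to its siNeg mean of 0.508 FPKM and shrinks the difference. Its call with the block turned on the libraries in the fit. Leaving out replicate number 2 gave a limma adjusted p of 0.0234 and a log2 difference of 1.014. Leaving out siNeg 2 gave an adjusted p of 0.0316. Leaving out siCENPF 1 or siCENPF 2, which are in neither group compared, gave 0.0322 and 0.0385. In the same order these fits called 1122, 1343, 1433 and 1620 of all genes, beside 1295 with every library.

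FOXO3 (chr6:108559835-108684774, plus strand), the most abundant FOXO gene in these cells, had 1278, 1349 and 1286 normalized counts in siFOXM1, 1297, 1365 and 1280 with both siRNAs, 1387, 1313 and 1142 in siCENPF and 1194, 1427 and 1118 in siNeg. Its values overlapped between all groups. The log2 difference between siFOXM1 and siNeg was 0.07. Its interval ran from -9.44% to 22.1% on the linear scale, and from -4.55% to 15.9% with the block. FOXO3 has a near-identical pseudogene copy, FOXO3B, which averaged 23.0 normalized counts in siFOXM1 and 22.4 in siNeg, so a small part of its reads may be placed there. FOXO1 (chr13:40555667-40666597, minus strand), a regulator of insulin-responsive genes, was low, with 25.1, 33.7 and 44.1 normalized counts in siFOXM1, 17.6, 41.3 and 31.4 with both siRNAs, 23.9, 30.0 and 30.1 in siCENPF and 28.2, 52.3 and 32.4 in siNeg. These values rest on 13 to 61 reads, and the log2 difference of -0.12 had an interval of -0.86 to 0.62. On the linear scale this spans -44.8% to 54.1%, and -37.9% to 37.2% with the block. Per length, the 3 FOXO genes together gave 4.59, 5.47 and 5.03 FPKM in siFOXM1 and 4.04, 5.87 and 4.12 FPKM in siNeg.

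Neither FOXC gene, both regulators of anterior eye and vascular development, passed the test. FOXC1 (chr6:1609972-1613897, plus strand, 1 exon) had 271, 181 and 296 normalized counts in siFOXM1, 261, 162 and 250.2 with both siRNAs, 318, 142 and 254 in siCENPF and 326, 209 and 281 in siNeg. The log2 difference between siFOXM1 and siNeg was -0.13 with an interval of -0.80 to 0.53, or -0.38 to 0.11 with the block. FOXC2 (chr16:86567251-86569728, plus strand, 1 exon) had 1582, 1125 and 1465 normalized counts in siFOXM1, 1405, 1085 and 1411 with both siRNAs, 1685, 1117 and 1489 in siCENPF and 1524, 1183 and 1661 in siNeg. Its log2 difference was -0.07, with an interval of -0.46 to 0.33, or -0.20 to 0.06 with the block. In both genes the second library was the lowest of its group in all 4 groups. The share of all genes with this order was not counted, and an F test of the replicate number in limma called 46.4% of all genes.

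The FOXK genes had differences of opposite sign, FOXK1 lower and FOXK2 higher in siFOXM1 than in siNeg within each replicate number, and neither passed the test. Such agreement of sign over the 3 numbers was seen for 3 of the 10 members, FOXO4, FOXK1 and FOXK2, and for 43.6% of all genes. FOXK1 (chr7:4682309-4771443, plus strand), a factor tied to autophagy and glycolysis genes, had 776, 548 and 663 normalized counts in siFOXM1, 841, 569 and 793 with both siRNAs, 783, 546 and 789 in siCENPF and 823, 725 and 791 in siNeg. Its log2 difference was -0.25 with an interval of -0.63 to 0.14 (limma adjusted p = 0.845), and -0.42 to -0.08 with the block (adjusted p = 0.0598). With the block and without siCENPF 2, a library in neither group, the limma adjusted p was 0.0344. That fit called 1620 of all genes, beside 1295 with every library. FOXK2 (chr17:82519713-82644662, plus strand), a partner of the BAP1 complex, had 1738, 1690 and 1735 normalized counts in siFOXM1, 1544, 1627 and 1716 with both siRNAs, 1568, 1593 and 1706 in siCENPF and 1519, 1615 and 1664 in siNeg. Its 3 siFOXM1 libraries all lay above the 3 siNeg libraries. Ranges that did not overlap, in either direction, were seen for 1 of 10 members and for 13.4% of all genes. The difference was small, 0.11 on the log2 scale (7.71%), with an interval of -0.05 to 0.27. With the block the interval was -0.01 to 0.22 (limma adjusted p = 0.266). With both siRNAs FOXK2 overlapped its siCENPF range.

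FOXP1, FOXJ2 and FOXN3 did not pass the test either, with differences between -1.17% for FOXN3 and 7.95% for FOXJ2 in siFOXM1 against siNeg. FOXP1 (chr3:70954693-71583989, minus strand), a repressor with roles in lymphocytes and progenitor cells, had 1173, 970.1 and 1079 normalized counts in siFOXM1, 1053, 783 and 1074 with both siRNAs, 1147, 822 and 1104 in siCENPF and 1100, 816 and 1124 in siNeg. The log2 difference between siFOXM1 and siNeg was 0.09 (interval -0.26 to 0.45, or -0.05 to 0.23 with the block). FOXJ2 (chr12:8032703-8055503, plus strand), a widely expressed activator, had 631, 588 and 708 normalized counts in siFOXM1, 612, 537 and 682 with both siRNAs, 721, 498 and 599 in siCENPF and 649, 515 and 625 in siNeg. Its log2 difference was 0.11 (interval -0.20 to 0.42, or -0.07 to 0.29 with the block). FOXN3 (chr14:89124871-89619149, minus strand), a repressor first described as a checkpoint suppressor, had 267, 476 and 399 normalized counts in siFOXM1, 322, 429 and 374 with both siRNAs, 352, 412 and 392 in siCENPF and 291, 524 and 344 in siNeg. Its log2 difference was -0.02 (interval -0.51 to 0.48, or -0.25 to 0.21 with the block). Its siFOXM1 and siNeg ranges overlapped over most of their length.

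**Figure D3:**
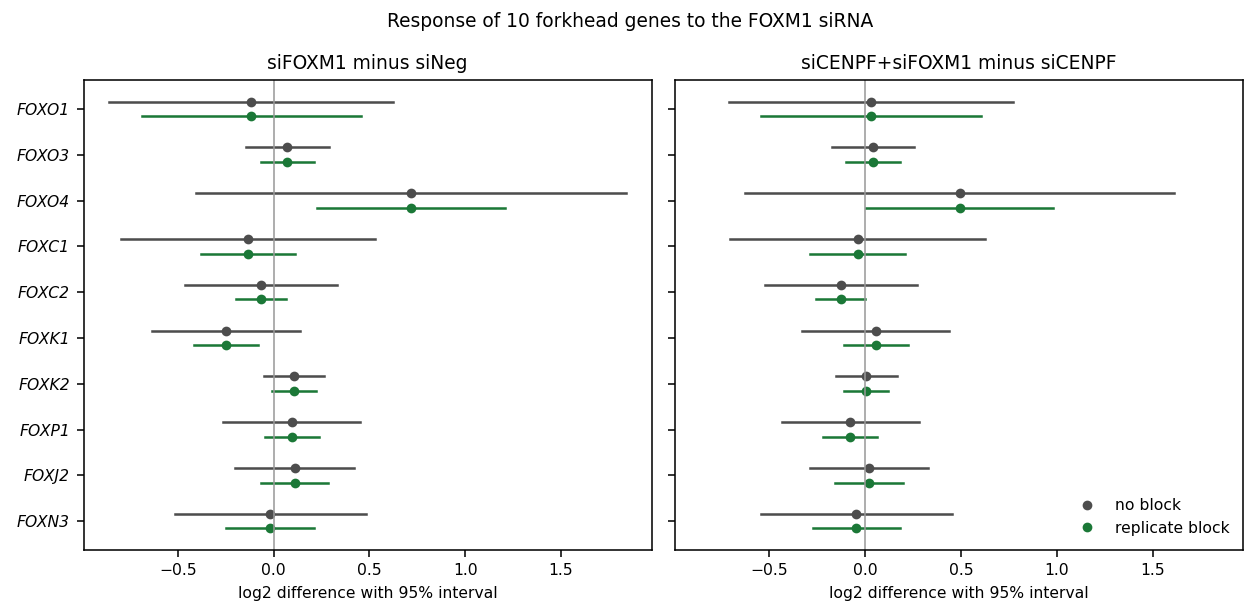
Log2 difference of each of the 10 genes with its 95% interval from limma, in siFOXM1 minus siNeg at the left and in siCENPF+siFOXM1 minus siCENPF at the right; grey without and green with the replicate number as a block, n = 3 libraries a group. The widest intervals are those of FOXO4 and FOXO1, and with the block the interval in siFOXM1 minus siNeg excludes 0 for FOXO4 and FOXK1 alone, before adjustment over all genes.

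In cells that all carried siCENPF, a comparison that shares no library with siFOXM1 against siNeg, the FOXM1 siRNA also gave 0 called members of 10, where 0.0808% of all genes were called without and 1.46% with the block. Unadjusted p-values under 0.05 numbered 0 without and 1 with the block, for FOXO4, beside 439 and 1759 of all 14857 genes. Neither edgeR nor DESeq2 called any of the 10, beside 11 of 14554 and 32 of 11708 genes. FOXO4 had a log2 difference of 0.49 with both siRNAs against siCENPF (interval with the block 0.00 to 0.98, limma adjusted p = 0.417), and it was higher in numbers 1 and 3 and lower in number 2. The difference came mainly from number 1, at 1.29. FOXK1 did not repeat its sign: its log2 difference here was 0.06, against -0.25 in siFOXM1 minus siNeg. The test of that contrast, the interaction of the siRNAs, gave 0.30 for FOXK1 (unadjusted p = 0.0147 and adjusted p = 0.393 with the block). No member was called for the interaction. Without the block limma called 0% of all genes, with 353 genes and 0 members at an unadjusted p under 0.05, while edgeR called 0 genes and DESeq2 21. With the block limma called 0.841% of all genes. FOXC2 at -0.13, FOXP1 at -0.08 and FOXK1 had the same sign in all 3 numbers, 3 of 10 members against 33.7% of all genes. The ranges of the groups overlapped for all 10 members, while 7.43% of all genes had ranges that did not. FOXO3 differed by 0.04, FOXK2 by 0.01, FOXJ2 by 0.02, FOXO1 by 0.03, FOXC1 by -0.04 and FOXN3 by -0.05 on the log2 scale.

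Against the same siNeg libraries, neither both siRNAs nor siCENPF gave a called member. With both siRNAs against siNeg, limma called 0.458% of all genes and 0 members without the block, and 7.9% of all genes and 0 members with it. The log2 differences were 0.73 for FOXO4 (limma adjusted p = 0.0566 with the block), -0.29 for FOXC1 and -0.16 for FOXC2. These were the 3 members with an unadjusted p under 0.05 with the block, beside 3167 of all 14857 genes. With 1 library or number left out the log2 differences ran from 0.3568 to 1.2240 for FOXO4, -0.4644 to -0.0666 for FOXC1 and -0.3014 to -0.0339 for FOXC2. FOXO4 passed the threshold with the block when replicate number 2, siNeg 2, siCENPF 1 or siCENPF 2 was left out (adjusted p = 0.0235, 0.0326, 0.0291 and 0.0354). In the same order these fits called 1084, 1104, 1310 and 1533 of all genes, beside 1174 with every library. In siCENPF against siNeg, 0.337% of all genes were called without and 4.52% with the block, again with 0 members. FOXC1, at -0.25, was the 1 member with an unadjusted p under 0.05 with the block, beside 2511 of all 14857 genes. FOXO4 differed by 0.24 (interval with the block -0.25 to 0.73). No member had an unadjusted p under 0.05 without the block in either comparison, beside 1093 and 821 of all genes, and edgeR and DESeq2 called 0 of 10 in both. Over all genes edgeR called 62 of 14554 with both siRNAs and 45 of 14554 with siCENPF. DESeq2 called 166 of 11989 and 135 of 13397 in the same order. Ranges that did not overlap were seen for 0 members, and for 12.9% of all genes with both siRNAs and 9.31% with siCENPF. The authors' deposited tables of edgeR comparisons against siNeg gave FOXO4 a log fold change of 0.57 in siFOXM1 and 0.59 with both siRNAs, FOXK1 -0.24 in siFOXM1, and marked none of the 10 members as changed.

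The 10 genes varied more with the replicate number than with the siRNA. An F test of the replicate number in limma, with the 4 groups in the fit, was added after the values were seen and called 9 of the 10 members, where 46.4% of all genes were called. FOXK2 was the exception (adjusted p = 0.196). The share of the log2 sum of squares that went with the number was 87.2% for FOXC2, 84.7% for FOXP1, 82.6% for FOXC1 and 78.2% for FOXN3, against a median of 41.0% over all genes. It was 71.6% for FOXK1, 68.9% for FOXJ2, 62.8% for FOXO4, 57.9% for FOXO1, 49.5% for FOXO3 and 41.6% for FOXK2. The siRNA share was 7.3% for FOXC2, 7.88% for FOXP1, 9.03% for FOXC1 and 0.604% for FOXN3, against a median of 22.2% over all genes. For FOXM1 the siRNA group took 98.0%. FOXK2, at 40.0%, was the 1 member whose siRNA share lay above that median.
FOXC2 averaged 1549, 1128 and 1506 normalized counts over the 4 libraries of numbers 1, 2 and 3. Every library of number 2 lay below every other library for FOXC1, FOXC2, FOXP1 and FOXJ2. FOXP1 averaged 1118, 848 and 1095 normalized counts. For FOXO4 and FOXN3 the order turned round, and every library of number 2 lay above all others. The share of all genes with either order was not counted. FOXO4 averaged 45.4, 102 and 57.7 normalized counts, and FOXN3 averaged 308, 460.3 and 377. What the numbers stand for is not given in the labels. Libraries siCENPF 3 and siNeg 3 held 31302177 and 35411230 reads in genes, more than the others of number 3, and the part of depth in these differences was not tested.

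**Figure D4:**
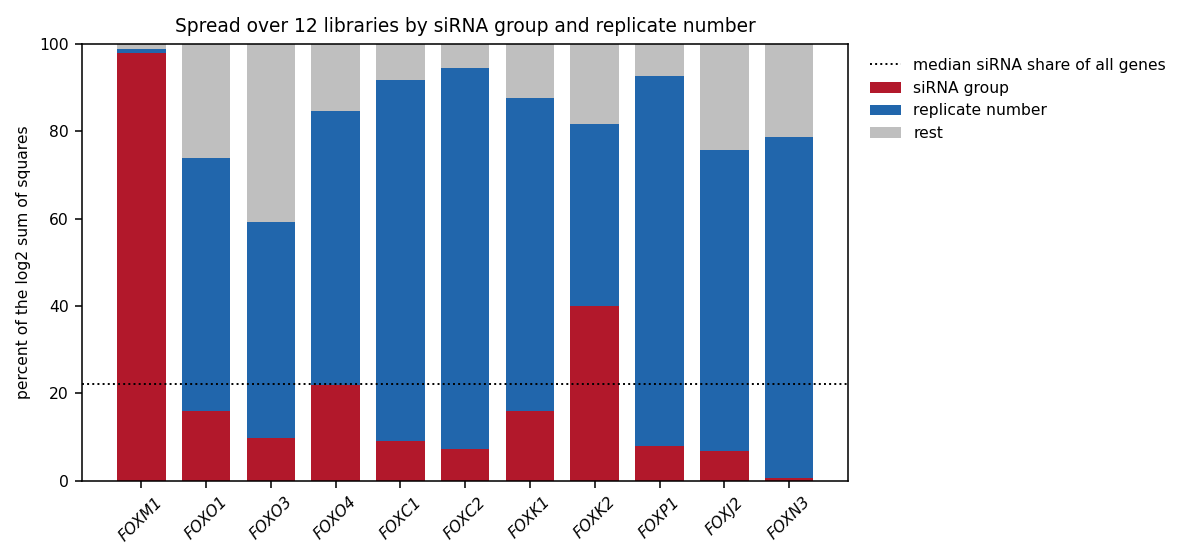
Share of the sum of squares of log2(normalized count + 1) over 12 libraries that goes with the siRNA group (red), the replicate number (blue) and neither (grey), for FOXM1 and the 10 other genes; the dotted line is the median siRNA share of all genes tested. The red part fills most of the bar for FOXM1 (98.0%) and stays at or under the dotted line for every other gene shown except FOXK2.

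Summed per length, the 10 genes gave 53.2, 43.7 and 52.7 FPKM in siFOXM1 and 51.7, 46.1 and 55.4 FPKM in siNeg. The sum was 49.5, 41.8 and 50.8 FPKM with both siRNAs and 55.2, 41.3 and 51.2 FPKM in siCENPF. FOXM1 itself gave 2.28, 1.59 and 2.62 FPKM in siFOXM1 and 13.1, 14.6 and 15.3 FPKM in siNeg, and the groups' sums overlapped. Most of each sum is FOXC2, and it is a description of level and not of activity.

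Of 44 further forkhead symbols in the FPKM table, 16 were in the normalized count table, and the other 28 reached at most 0.289 FPKM in any library, with 18 of them listed at 0 throughout. FOXD1, a factor of stromal and retinal patterning, exceeded every member, at 72.1 FPKM in siFOXM1 and 71.0 FPKM in siNeg. FOXS1 averaged 8.87 FPKM in siFOXM1 and 7.38 FPKM in siNeg, but its mean rested on replicate number 2, with 4.1, 15.9 and 6.58 FPKM in siFOXM1 and 3.21, 15.1 and 3.88 FPKM in siNeg. FOXF2, which lay above FOXS1 in siNeg 1 and siNeg 3, averaged 7.27 FPKM in siFOXM1 and 6.78 FPKM in siNeg. In the same order of groups the means were 3.43 and 3.61 FPKM for FOXN2, and 3.51 and 3.55 FPKM for FOXL1. Without the block 0 of the 16 were called in siFOXM1 against siNeg by limma, edgeR or DESeq2. Unadjusted p under 0.05 numbered 1 in limma, 2 in edgeR and 1 in DESeq2, beside 1155, 1167 and 1122 over all genes. With the block 1 of 16 was called, beside 8.72% of all genes. This was FOXQ1, which fell by 1.62 on the log2 scale (limma adjusted p = 0.0276). FOXQ1, a factor of epithelial differentiation, was near the limit of detection, with 6.5, 2.24 and 8.52 normalized counts in siFOXM1, 10.4, 5.22 and 9.1 with both siRNAs, 26.2, 6.11 and 15.1 in siCENPF and 15.5, 18.2 and 20.4 in siNeg. It did not pass with both siRNAs against siCENPF (log2 difference -0.70, adjusted p = 0.59), where 0 of the 16 were called by limma with or without the block, with 2 and 0 unadjusted p under 0.05. The median log2 difference of the 16 genes in siFOXM1 against siNeg was 0.00114, beside -0.000647 for all genes.

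Genes that act upstream of the FOXO factors and their known targets were read from lists. Of 39 regulators (PI3K, AKT and stress kinases, 14-3-3 proteins and acetylation enzymes), 37 were tested. Without the block 0 were called in siFOXM1 against siNeg by limma, with 3 unadjusted p under 0.05 (1155 of all 14857 genes), and 0 by edgeR and DESeq2. With the block 0 rose and 2 of 37 fell, where 8.72% of all genes were called in that fit. MAPK14, the stress kinase p38, had 1299, 1053 and 1150 normalized counts in siFOXM1 and 1465, 1471 and 1457 in siNeg, with no overlap, and fell by 0.33 on the log2 scale (limma with the block, adjusted p = 0.00133). YWHAB, a 14-3-3 protein that retains phosphorylated FOXO in the cytoplasm, fell by 0.20 (adjusted p = 0.00835). MAPK8, the kinase JNK, differed by 0.25 (adjusted p = 0.052) and did not pass. The median of the list was -0.0222, beside -0.000647 for all genes. In siCENPF+siFOXM1 against siCENPF, 0 of the 37 were called by limma with or without the block, with 9 and 2 unadjusted p under 0.05 (1759 and 439 of all 14857 genes), nor by edgeR or DESeq2 without it.

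Of 50 known FOXO targets, 39 were tested and 0 were called without the block by limma, edgeR or DESeq2 in siFOXM1 against siNeg, with 0 unadjusted p under 0.05. With the block 4 rose and 2 fell, of 39, where 8.72% of all genes were called in that fit. SESN2, a stress-induced inhibitor of mTORC1 signalling, had 676, 405 and 428 normalized counts in siFOXM1 and 471, 272 and 255 in siNeg, and rose by 0.61 (adjusted p = 5.04e-05). Its groups overlapped, but siFOXM1 was above siNeg within each replicate number. BBC3, the pro-apoptotic PUMA, rose by 0.61 (adjusted p = 0.0147), RBL2, the pocket protein p130, by 0.35 (adjusted p = 0.00625) and TXNIP, an inhibitor of thioredoxin, by 0.28 (adjusted p = 0.0133). CCND1, cyclin D1, fell by 0.22 (adjusted p = 0.00208), and CITED2, a coactivator-binding protein, by 0.22 (adjusted p = 0.00924). The siCENPF libraries showed part of this too: against the same siNeg libraries SESN2 rose by 0.54 (adjusted p = 0.000404), BBC3 by 0.65 (adjusted p = 0.0148) and TXNIP by 0.37 (adjusted p = 0.00218) in siCENPF. In siCENPF+siFOXM1 against siCENPF 0 of the 39 targets were called by limma with or without the block, with 11 and 0 unadjusted p under 0.05 (1759 and 439 of all 14857 genes), and 0 by edgeR or DESeq2. There SESN2 differed by 0.07, BBC3 by -0.17, RBL2 by 0.23, TXNIP by 0.24, CCND1 by -0.15 and CITED2 by -0.14 on the log2 scale. The median of the targets was 0.0221 in siFOXM1 against siNeg, beside -0.000647 for all genes. PIK3CA, INSR, IRS2 and RICTOR stand in both lists, and TXNIP and BBC3 were named after their values were seen.

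Of 16 partners of the FOXK factors 15 were tested. Without the block 0 of them were called by limma or edgeR in siFOXM1 against siNeg. Both tools gave 4 unadjusted p under 0.05, beside 1155 of all 14857 genes in limma and 1167 of 14554 in edgeR. DESeq2 called 2, DVL3 and SUDS3, beside 244 of 14525 genes. With the block 3 rose and 2 fell, of 15, where 8.72% of all genes were called in that fit. DVL3, a Dishevelled protein that FOXK factors carry into the nucleus, had 1821, 1758 and 1680 normalized counts in siFOXM1 and 1419, 1427 and 1223 in siNeg, with no overlap, and rose by 0.37 (adjusted p = 0.000136). SUDS3, a subunit of the SIN3 repressor complex, had 844, 858 and 819 normalized counts in siFOXM1, 815, 886 and 875 in siCENPF and 1040, 1067 and 1019 in siNeg. It fell by 0.31 in siFOXM1 (adjusted p = 0.00241) and by 0.28 in siCENPF (adjusted p = 0.0102) against the same siNeg libraries. OGT, which modifies HCFC1 in the BAP1 complex, rose by 0.23 (adjusted p = 0.031) and the BAP1 partner MBD6 by 0.27 (adjusted p = 0.0436), and the histone demethylase KDM1B fell by 0.32 (adjusted p = 0.0255). Of these 5, none was called in siCENPF+siFOXM1 against siCENPF (log2 differences 0.15 for DVL3, -0.01 for SUDS3, 0.22 for OGT, 0.02 for MBD6 and -0.20 for KDM1B). Of 20 glycolysis genes, which FOXK factors induce, 0 were called without the block by limma, edgeR or DESeq2, with 1 unadjusted p under 0.05 in each. With the block 3 of 20 were called, beside the same 8.72% of all genes. LDHA, lactate dehydrogenase A, rose by 0.28 (adjusted p = 0.000781) and the glucose transporter SLC2A1 by 0.16 (adjusted p = 0.0442), and GPI, glucose-6-phosphate isomerase, fell by 0.19 (adjusted p = 0.0363). LDHA had 25935, 30356 and 27145 normalized counts in siFOXM1, 27910, 32317 and 26490 with both siRNAs, 24123, 31942 and 26453 in siCENPF and 21444, 23881 and 23540 in siNeg, and also rose in siCENPF against siNeg, by 0.25 (adjusted p = 0.00323). GPI had the 1 call of the list in siCENPF+siFOXM1 against siCENPF, where it fell by 0.23 (adjusted p = 0.0312). With the block 1.46% of all genes were called there. HK1, hexokinase, differed by -0.17 in siFOXM1 against siNeg (adjusted p = 0.0527). MBD6 was named after its value was seen. The medians were 0.0394 for the partners and -0.0544 for glycolysis, beside -0.000647 for all genes.

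Among 13 co-repressors that FOXP1 and FOXN3 use, HDAC1 was the 1 gene called without the block, by limma, edgeR and DESeq2 alike, where limma called 0.66% of all genes. HDAC1, a histone deacetylase, had 1282, 1306 and 1257 normalized counts in siFOXM1, 1216, 1492 and 1308 with both siRNAs, 1223, 1301 and 1293 in siCENPF and 715, 782 and 755 in siNeg. All 9 libraries with a targeting siRNA lay above the 3 siNeg libraries, and HDAC1 rose by 0.77 in siFOXM1, 0.83 with both siRNAs and 0.76 in siCENPF against the same siNeg libraries (limma without the block, adjusted p = 0.000668, 0.00067 and 0.00163). In siCENPF+siFOXM1 against siCENPF it differed by 0.07 (adjusted p = 0.728 with the block). GATAD2A and RCOR1, also co-repressors, differed by -0.14 and 0.16 in siFOXM1 against siNeg and were not called there. With the block edgeR called GATAD2A with both siRNAs against siNeg and in siCENPF against siNeg, beside 1173 and 673 of 14554 genes. In both comparisons limma with the block called 1 co-repressor lower. Of 20 mesenchymal and anterior eye genes around FOXC 18 were tested. Without the block 0 were called by limma or edgeR in siFOXM1 against siNeg. Both tools gave 2 unadjusted p under 0.05, beside 1155 of all 14857 genes in limma and 1167 of 14554 in edgeR. DESeq2 called CDH2, beside 244 of 14525 genes. With the block 4 of 18 rose and 0 fell, where 8.72% of all genes were called in that fit. CYP1B1, a monooxygenase mutated in congenital glaucoma, had 461, 846 and 603 normalized counts in siFOXM1 and 332, 583 and 282 in siNeg and rose by 0.70 (adjusted p = 4.70e-05). CDH2, N-cadherin, rose by 0.28 (adjusted p = 0.000248), TGFB1 by 0.18 (adjusted p = 0.0285) and LTBP2, a TGF-beta binding matrix protein, by 0.31 (adjusted p = 0.0397). CYP1B1 was also higher in siCENPF against siNeg, by 0.80 (adjusted p = 1.36e-05), and differed by 0.02 in siCENPF+siFOXM1 against siCENPF. In that last comparison 0 of the 18 were called without the block by limma, edgeR or DESeq2, with 1 unadjusted p under 0.05 in each. With the block 1, TGFB2, fell, where 1.46% of all genes were called. The medians were 0.0381 for the co-repressors and 0.0361 for the FOXC list, beside -0.000647 for all genes.

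The genes whose pattern was most like each member were sought among 10257 genes with a mean of at least 100 normalized counts, by Pearson correlation of log2 values over the 12 libraries after the mean of each replicate number was removed. The 12 libraries share 4 siRNA groups, and the best of 10257 correlations is high by selection, so the values are a description. For FOXO4 they were SAV1 (r = 0.95) and SRSF6 (r = 0.94), for FOXO1 CCSER2 (r = 0.98) and SLU7 (r = 0.95) and for FOXO3 KLHL24 (r = 0.92) and RAPGEF1 (r = 0.90). FOXC1 was closest to DLG4 (r = 0.98) and USP28 (r = 0.93), and FOXC2 to MCU (r = 0.96) and E2F6 (r = 0.90). FOXK1 was closest to EPC1 (r = 0.93) and KIF1B (r = 0.92), and FOXK2 to NFKB1 (r = 0.94) and XPA (r = 0.93). For FOXP1 they were KIF1C (r = 0.96) and C11orf84 (r = 0.87), for FOXJ2 KIAA1033 (r = 0.89) and SCAMP4 (r = 0.89) and for FOXN3 ACVR1B (r = 0.92) and PPP4R1L (r = 0.87). No member was among the closest genes of another member.

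The positions of the members are in build hg38 as the deposited tables give them, and 7 of the 10 have the same start and end in GENCODE 29. FOXO1, FOXC2 and FOXP1 differ in 1 or both ends. Several members share exonic bases with other annotated genes. FOXK2 shares 1190 bases with AC124283.1 on the other strand, FOXN3 832 bases with AL138478.1 on the other strand, FOXP1 2539 bases with AC097634.4 on the same strand and FOXC2 145 bases with FOXC2-AS1 on the other strand. Each of these 4 overlaps covers between 5% and 11.9% of the exonic bases of the member. How many reads fall in them was not measured, and the counts of these members are uncertain for that reason. FOXO3, FOXO4, FOXC1, FOXK1 and FOXJ2 share no exonic base with another annotated gene.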

How the data were processed

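Poly(A) RNA of hTERT-RPE1 cells was measured by sequencing in 12 libraries, 3 for each of 4 siRNA groups taken from the labels. The submitters' processing notes name bcl2fastq, Trimmomatic, TopHat, edgeR and build hg38, without versions, and the names of the deposited tables point to htseq counting. The signal tested, a normalized count per gene, was brought to similar library sizes by the authors, with a method that neither labels nor headers describe. The FPKM and CPM values were deposited by the authors, scaled to the reads in genes and, for FPKM, to the exonic length, as the file headers and values show. The log2 fold changes, the p-values and the likelihood ratio score of the edgeR comparisons are the authors' own, as deposited. CPM steps gave whole reads within 0.01 for 100% of the values of 14556 genes, and these reads were used for edgeR and DESeq2 only.

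A gene was kept when 3 or more libraries reached 10 normalized counts, which held for 14857 of 14862. Differences of log2(normalized count + 1) were tested with limma 3.58.1 (R 4.3.3, trended and robust, two-sided, Benjamini-Hochberg over all genes kept, threshold 0.05), with the 4 groups in 1 fit. A log2 difference on this scale understates the change of low genes. Replicate numbers in the labels were shared by the groups. Deviations from the group means correlated by 0.272 to 0.639 in all 18 same-numbered pairs, so the number was treated as pairing the libraries from the data, and the fit with it as a block is given beside the results. Alternatives were a pseudocount of 10, no filter, equal column sums, quantile normalization, the FPKM table with a pseudocount of 0.5, edgeR 4.0.16, DESeq2 1.42.0, a fit of the compared groups alone, and each library or number left out. The limma fits with and without the block were run on simulated counts with the same dispersion for every gene and no effect of the replicate number. The F test of the number was run on simulated normal values. Neither setting has the spread of these data, and edgeR and DESeq2 were not run on simulated data. Intervals are 95% and come from limma.

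The members and gene lists were chosen with earlier results of these data known. Named were all members, FOXM1 and CENPF, other forkhead genes that were called or among the 5 of highest FPKM in siNeg, up to 4 genes of each list by adjusted p with the block plus those called without it, and the 2 genes most correlated with each member. Some list genes that this rule picks are not reported here. The authors' tables gave symbols for 14202 genes, the reference table for 601, and 59 had none. Promoter windows are RefSeq's, of assembly GRCh38.p14.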

Additional observations from a re-analysis of the deposited data

How the results depend on the processing

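No member was called in any comparison by any of the alternatives set with the design, that is the replicate block, another pseudocount, no filter, equal column sums, quantile normalization, the FPKM table, edgeR with and without the block, DESeq2, a fit of the compared groups alone, and each library or number left out without the block. Each number stands once in every group, so the paired fit cannot change a log2 difference and alters only its spread and p-value. It gave FOXO4 0.7167 and FOXK1 -0.2476 in siFOXM1 against siNeg, as without the block. Fits with the block kept and libraries left out were added after the data were seen. In these fits the members called numbered 0 to 2 in siFOXM1 against siNeg, beside 513 to 1620 of all 14857 genes. With both siRNAs against siNeg they numbered 0 to 1, beside 469 to 1533 of all genes. All of these members were FOXO4 or FOXK1. The sign of a member's log2 difference differed from the reported one in 13 of 249 alternative values in siFOXM1 against siNeg, 27 of 249 with both siRNAs against siCENPF, 13 of 249 with both siRNAs against siNeg and 34 of 249 in siCENPF against siNeg. These totals include settings that cannot change a difference of group means. They are the block, no filter, the compared groups alone and leaving out a library of neither group, so the fractions understate how often a sign could turn. FOXO1 was below the filter of the FPKM table and has no value there. In siFOXM1 minus siNeg, the values with 1 library or number left out were FOXO1 -0.3918 to 0.1412, FOXO3 -0.0016 to 0.1740, FOXO4 0.3393 to 1.2065, FOXC1 -0.3119 to 0.0796, FOXC2 -0.2085 to 0.0791, FOXK1 -0.3690 to -0.1186, FOXK2 0.0633 to 0.1362, FOXP1 -0.0543 to 0.1769, FOXJ2 0.0081 to 0.1859 and FOXN3 -0.1987 to 0.2245. With both siRNAs minus siCENPF, the values with 1 library or number left out were FOXO1 -0.2308 to 0.3598, FOXO3 -0.0386 to 0.1106, FOXO4 -0.0032 to 1.0231, FOXC1 -0.3710 to 0.2077, FOXC2 -0.2951 to 0.0011, FOXK1 -0.1193 to 0.2294, FOXK2 -0.0326 to 0.0435, FOXP1 -0.2284 to 0.0698, FOXJ2 -0.1128 to 0.1532 and FOXN3 -0.1479 to 0.0596. With both siRNAs minus siNeg, the values with 1 library or number left out were FOXO1 -0.6029 to -0.0123, FOXO3 0.0092 to 0.1848, FOXO4 0.3568 to 1.2240, FOXC1 -0.4644 to -0.0666, FOXC2 -0.3014 to -0.0339, FOXK1 -0.2132 to 0.0685, FOXK2 -0.0116 to 0.0646, FOXP1 -0.2115 to 0.0845, FOXJ2 -0.0677 to 0.1232 and FOXN3 -0.1889 to 0.2341. In siCENPF minus siNeg, the values with 1 library or number left out were FOXO1 -0.5489 to -0.1148, FOXO3 -0.0451 to 0.1432, FOXO4 -0.2889 to 0.7374, FOXC1 -0.4939 to 0.0848, FOXC2 -0.1740 to 0.1360, FOXK1 -0.2511 to 0.0142, FOXK2 -0.0156 to 0.0501, FOXP1 -0.1342 to 0.1658, FOXJ2 -0.1186 to 0.1473 and FOXN3 -0.1436 to 0.2795. Other settings changed a sign in siCENPF minus siNeg alone: equal column sums gave FOXJ2 -0.0087, FOXP1 -0.0085 and FOXK2 -0.0022, the FPKM table gave FOXJ2 -0.0061, FOXP1 -0.0052, FOXN3 -0.0035 and FOXK2 -0.0021, edgeR gave FOXN3 -0.0030 and DESeq2 gave FOXN3 -0.0043. The cause was not tested. Counts over all genes moved more: siFOXM1 against siNeg gave 98 called genes without and 1295 with the block, 244 with DESeq2, 41 with the compared groups alone and 2 without replicate number 3. With both siRNAs against siCENPF they were 12, 217, 32, 3 and 0 in the same order, with both siRNAs against siNeg 68, 1174, 166, 35 and 3, and in siCENPF against siNeg 50, 671, 135, 6 and 1. FOXO1 and FOXO4 had the fewest reads, 13 to 61 and 17 to 88 a library, and the part of depth in their wide intervals was not tested.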
